A study of Mus musculus with 24 samples.

Results

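The chromosome 12 imprinted noncoding RNA cluster was examined in the prefrontal cortex of mice with the Df(16)A+/- deletion. Its members were taken as every probe set in 1 range of numbers on the array, from 10398306 (Wdr25) to 10398459 (Ppp2r5c), a rule that uses no measured value. This gave 68 of 35556 probe sets. Of these, 57 run from Meg3 to the probe set shared by Mirg and Mir410, and 11 lie outside it. The 57 comprise 36 probe sets named to 1 miRNA precursor, 6 named to a precursor together with another gene, Meg3, Rian, 2 named small nucleolar RNA genes and 11 with no gene symbol in the annotation used here. The 11 outside belong to Wdr25, Dlk1, Dio3, Rps25 and Ppp2r5c (8 probe sets) or have no symbol (3 probe sets). Rps25 lies on chromosome 9 in the gene table, although its probe set is numbered here.

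The study compared 12 mutant mice, heterozygous for the deletion written Df16(A)+/- in the sample labels, with 12 WT littermates. All were males 8 weeks old on the C57BL6/J background, and no further allele, transgene or treatment is named for either group. Each array was hybridised with labelled cDNA from 100 ng of total RNA of the prefrontal cortex, and the values are log2 levels after robust multi-array averaging (RMA). Df(16)A removes a single copy of a segment of another chromosome that includes Dgcr8, and the cluster lies outside it. The tissue is a mixture of cells, and fewer cells of a type cannot be told apart from less RNA per cell. The labels name each array a replicate of its group and do not state that each is a separate animal. The p-values therefore judge the group difference against the spread between these samples. Each sample is called a mouse here for short.

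The cluster lies in the Dlk1-Dio3 imprinted domain. On the maternal chromosome it produces long noncoding RNAs, namely Meg3, Rian and Mirg, together with a large number of miRNA precursors and box C/D small nucleolar RNAs embedded in them, while Dlk1, Rtl1 and Dio3 encode proteins made from the paternal copy. The precursor hairpins are cut out of the long transcript by Drosha and its RNA-binding partner Dgcr8, whereas small nucleolar RNAs are trimmed from spliced introns by exonucleases. Several of the miRNAs act in neurons, among them miR-134, known from dendritic spines.

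A probe set named to a precursor reports RNA that holds the precursor's sequence. It does not separate the long transcript from the excised hairpin and does not measure the mature miRNA. RefSeq (GRCm38.p6) held a hairpin for 41 of the 42 precursor symbols of the cluster, all on the plus strand, and 80 mature arms. The mature arms of the precursors at the distal end of the cluster are shown first, because their probe sets had the smallest p-values of those named to precursors alone or with Mirg; capitals mark the seed, bases 2 to 8, which sets target choice:
miR-541-5p: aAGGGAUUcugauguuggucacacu
miR-541-3p: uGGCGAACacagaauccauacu
miR-409-5p: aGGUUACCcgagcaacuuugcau
miR-409-3p: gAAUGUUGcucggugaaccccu
miR-412-5p: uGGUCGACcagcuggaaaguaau
miR-412-3p: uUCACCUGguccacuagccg
miR-369-5p: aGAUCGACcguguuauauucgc
miR-369-3p: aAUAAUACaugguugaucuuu
miR-410-5p: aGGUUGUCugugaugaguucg
miR-410-3p: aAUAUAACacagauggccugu
miR-485-3p: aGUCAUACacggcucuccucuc

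The 5 precursors placed opposite Rtl1, whose probe sets carry both names, gave the following mature arms, again with the seed in capitals:
miR-431-5p: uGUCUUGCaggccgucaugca
miR-431-3p: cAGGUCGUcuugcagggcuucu
miR-433-5p: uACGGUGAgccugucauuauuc
miR-433-3p: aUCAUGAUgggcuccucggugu
miR-127-5p: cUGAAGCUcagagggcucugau
miR-127-3p: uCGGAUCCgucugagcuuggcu
miR-434-5p: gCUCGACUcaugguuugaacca
miR-434-3p: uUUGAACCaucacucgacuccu
miR-136-5p: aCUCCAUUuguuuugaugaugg
miR-136-3p: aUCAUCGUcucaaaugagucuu

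The precursors with the smallest differences between the genotypes were Mir673 and Mir299a. Mir299a was also the dimmest precursor of the cluster, with a mean level of 4.96, and RMA compresses differences of dim probe sets. Whether this bears on its small difference was not tested. Mir673 had a mean level of 7.09. Over the 41 precursors with a hairpin, Pearson's r of the log2 fold change with the mean level was 0.009, given as a description. The arms of Mir673 and Mir299a are shown for contrast:
miR-673-5p: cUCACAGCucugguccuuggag
miR-673-3p: uCCGGGGCugaguucugugcacc
miR-299a-5p: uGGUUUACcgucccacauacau
miR-299a-3p: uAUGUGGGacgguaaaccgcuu

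The 80 listed arms of the cluster are diverse in their seeds, with 77 different seeds. For Mir376c, Mir487b, Mir539 and Mir485 a single arm is listed, so seeds of unlisted arms were not counted. Among the listed arms a seed was shared by 3 pairs, each a pair from different precursors. The miR-410-5p seed also occurs in miR-494-5p, and miR-376b-5p shares its seed with miR-376c-5p. The pair miR-379-3p and miR-411-3p is the remaining one:
miR-494-5p: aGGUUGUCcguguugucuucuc
miR-376b-5p: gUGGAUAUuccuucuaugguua
miR-376c-5p: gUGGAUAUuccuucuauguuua
miR-379-3p: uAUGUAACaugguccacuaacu
miR-411-3p: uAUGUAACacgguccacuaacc

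Whole hairpins are shown, with the mature arms in capitals, for Mir412, which had the largest difference of the probe sets named to 1 precursor, and Mir434, which had the largest of the cluster. Mir412 lies at chr12:109743289-109743368 and Mir434 at chr12:109594506-109594599, both on the plus strand of GRCm38.p6, the build of the sequence table. According to RefSeq, Mir412 lies inside Mirg and Mir434 inside the span of Rtl1:
Mir412: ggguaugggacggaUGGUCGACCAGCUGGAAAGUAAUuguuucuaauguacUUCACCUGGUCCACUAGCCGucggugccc
Mir434: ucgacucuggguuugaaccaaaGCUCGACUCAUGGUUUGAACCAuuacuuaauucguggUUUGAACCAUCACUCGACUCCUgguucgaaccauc

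The deletion was visible in its known target first. Dgcr8 had a level of 8.26 in MUT and 8.79 in WT, a log2 fold change of -0.54 ± 0.03 (SE; limma, adjusted p = 2.75e-12). Arrays correlated with each other at 0.988 to 0.994 over all probe sets. The tissue label was checked against cortical and neuronal markers: Slc17a7, the glutamate transporter of cortical excitatory neurons, had a level of 13.05 in MUT and 13.06 in WT, and Tbr1, a cortical transcription factor, 10.77 and 10.83. Of 32 measured markers of 9 cell types or regions, 1 was lower, Cldn5, which lies in the deleted segment, and none was higher. The list medians lay between -0.06 and 0.11 except for blood (-0.67 over 3 markers), where the granulocyte gene Ngp had a level of 6.04 in MUT and 7.24 in WT (adjusted p = 0.356). The log2 of the mean linear level of the 3 blood markers ran from 6.03 to 7.36 in MUT and from 6.44 to 9.64 in WT. The part of blood in the results was not tested.

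Of the 42 probe sets named to a precursor, alone or with another gene, 19 were higher in mutants and 23 did not pass the test. The probe sets of Meg3, Rian and the 2 named small nucleolar RNAs did not pass either. Of the 68 probe sets, 19 rose in MUT (limma, Benjamini-Hochberg adjustment over all 35556 probe sets, threshold 0.05), against 0.304% of all probe sets. None fell, against 0.127% of all. At an unadjusted p under 0.05 (limma), 38 of the 68 were higher and none was lower. Of all 35556 probe sets, 1905 were higher and 1605 lower at that threshold. The 19 that rose had log2 fold changes from 0.24 to 0.96 with a median of 0.59, and the median over the 68 was 0.22 against 0.003 over all probe sets. All 19 lie between Meg3 and Mirg, and each is named to a precursor. By class, 13 of 36 probe sets named to 1 precursor, 6 of 6 named to several genes, neither of the 2 long noncoding RNAs, neither named small nucleolar RNA and none of the 14 unnamed probe sets rose.

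**Figure D1:**
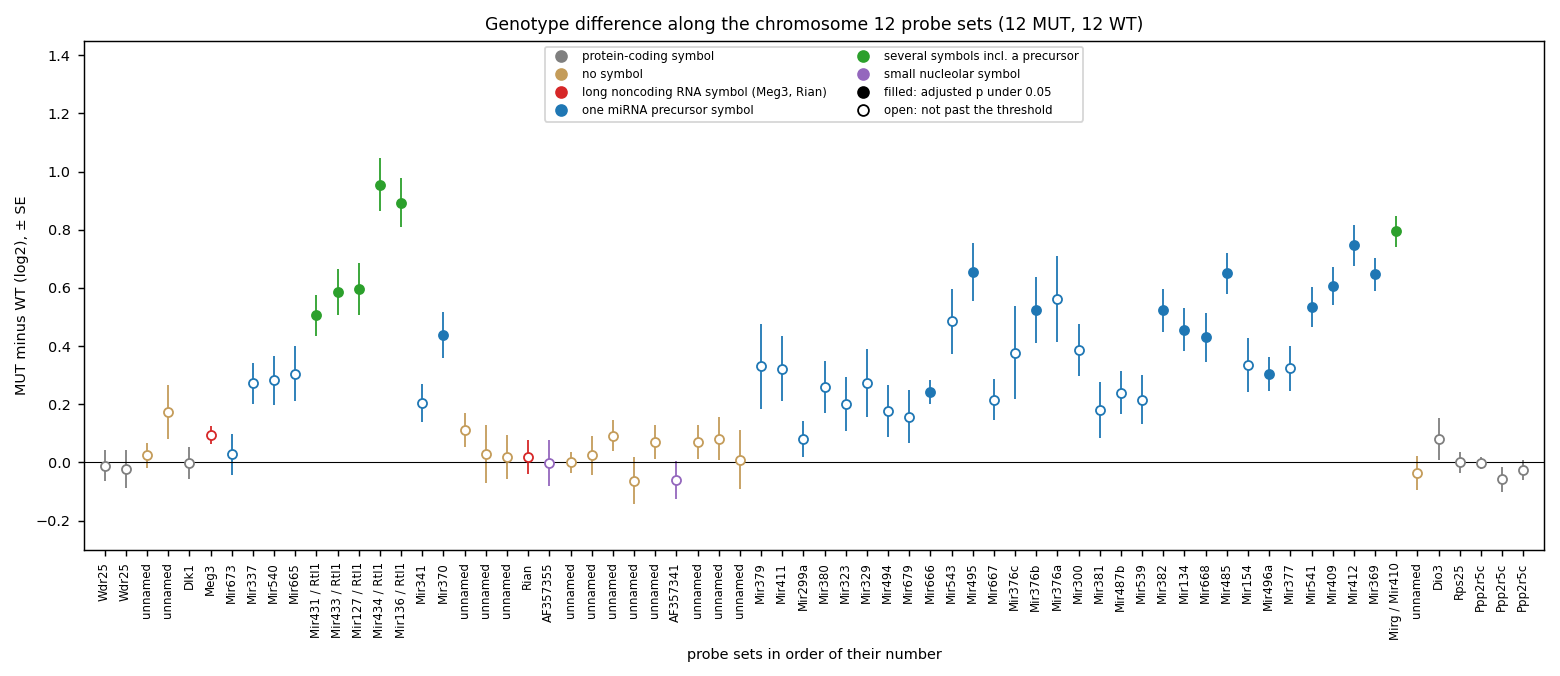
Difference between MUT and WT (log2, with its SE) for the 68 probe sets in order of their number, coloured by the kind of gene named and filled where the adjusted p was under 0.05. Filled points stand in the Rtl1 stretch, at the right end of the miRNA cluster and also at Mir370, Mir666, Mir495 and Mir376b. Meg3, Rian and the unnamed probe sets between Mir370 and Mir379 lie between -0.06 and 0.11.

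The order of the probe set numbers follows the chromosome. The probe sets and their symbols form 61 pairs, some symbols recurring, and every symbol was found in the RefSeq gene table. The starts of 46 genes of the cluster followed the order of the numbers with 1 exception, Rian, which RefSeq starts before Mir341. The results are given in that order below.

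Meg3, the long noncoding RNA at the start of the cluster, known as a growth suppressor, had levels from 12.36 to 12.53 with a median of 12.42 in the 12 MUT and from 12.18 to 12.48 with a median of 12.33 in the 12 WT mice. The genotypes overlapped, with 1 MUT above every WT. The log2 fold change was 0.09 ± 0.03 (SE; limma, adjusted p = 0.277), so Meg3 did not pass the test. Its unadjusted p was 0.00566, and 7 of 12 WT mice lay below every MUT mouse.

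The first precursors after Meg3 were Mir673, Mir337, Mir540 and Mir665. None of the 4 passed. Mir673 differed by 0.03 ± 0.07 on the log2 scale (limma, adjusted p = 0.926), and the other three had values of 0.27, 0.28 and 0.31, each with an unadjusted p under 0.05 and an adjusted p of 0.102, 0.216 and 0.235.

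The next 5 probe sets carry the name of Rtl1, a retrotransposon-derived gene needed in the placenta, together with that of a precursor transcribed from the opposite strand. These maternal precursors are known to give miRNAs that match the Rtl1 transcript perfectly. All 5 rose. The annotation does not say which strand the probes read, so signal from Rtl1 cannot be told apart here from signal of the precursors, and no probe set is named to Rtl1 alone.

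The probe set of Mir434 and Rtl1 had levels from 6.92 to 7.66 with a median of 7.32 in MUT and from 5.92 to 6.69 with a median of 6.38 in WT. Every MUT mouse lay above every WT mouse, which held for 0.0703% of all probe sets. The log2 fold change was 0.96 ± 0.09 (SE), a fold of 1.94 (limma, adjusted p = 1.99e-07), the largest in the cluster. Its neighbour, the probe set of Mir136 and Rtl1, had levels from 7.80 to 8.48 with a median of 8.20 in MUT and from 6.91 to 7.74 with a median of 7.35 in WT. Here too the genotypes did not overlap, and the log2 fold change was 0.89 ± 0.08 (adjusted p = 1.75e-07).

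The other three of this stretch rose less. The probe set of Mir127 and Rtl1 rose by 0.60 ± 0.09 on the log2 scale, with 11 of 12 MUT mice above every WT mouse. That of Mir433, Rtl1 and the antisense RNA 6430411K18Rik rose by 0.59 ± 0.08, also with 11 above. The probe set of Mir431 and Rtl1 rose by 0.51 ± 0.07, with 9 above. The last of these had a highest WT level of 7.77 and a lowest MUT level of 7.68.

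Between Rtl1 and the small nucleolar stretch lie Mir341 and Mir370, both inside Rian in RefSeq. Mir370 rose by 0.44 ± 0.08 (limma, adjusted p = 0.00431), from 6.76 ± 0.17 (SD, n = 12) in WT to 7.19 ± 0.23 in MUT. Mir341 differed by 0.20 ± 0.07 on the log2 scale (adjusted p = 0.26). When the Rian level of each array was subtracted from every probe set before the fit, Mir370 was still higher, by 0.42 (adjusted p = 0.00511).

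The 14 probe sets between Mir370 and Mir379 comprise Rian, the small nucleolar RNA genes AF357355 and AF357341 and 11 without a symbol. RefSeq lists 19 small nucleolar RNA genes in the same stretch, but the unnamed probe sets could not be paired with them and are not named here. None of the 14 passed, and none had an unadjusted p under 0.05. Their log2 fold changes lay between -0.06 and 0.11 with a median of 0.02, and the SEs between 0.04 and 0.10.

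Rian, a nuclear RNA that hosts small nucleolar RNAs, had levels from 8.69 to 9.11 with a median of 8.98 in MUT and from 8.66 to 9.15 with a median of 8.90 in WT. The ranges covered each other almost fully. Its log2 fold change was 0.02 ± 0.06 (SE; limma, adjusted p = 0.941). AF357355 had levels from 9.17 to 9.77 in MUT and from 9.19 to 9.79 in WT, with a log2 fold change of -0.002 ± 0.08. AF357341 had levels from 5.33 to 5.83 in MUT and from 5.27 to 5.80 in WT, with a log2 fold change of -0.06 ± 0.06.

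Among the unnamed probe sets of this stretch the smallest p belonged to 10398354, with a difference of 0.11 ± 0.06 on the log2 scale (limma, adjusted p = 0.551). Next came 10398368, with 0.09 ± 0.05 (adjusted p = 0.589). The probe sets 10398372 and 10398376 had identical values in all 24 mice, with a log2 fold change of 0.07 each, and therefore count as 1 measurement. Outside the cluster, the unnamed 10398317 before Dlk1 had 0.17 ± 0.09 (adjusted p = 0.563).

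From Mir379 to the probe set of Mirg and Mir410 there are 31 probe sets, all named to precursors. Every one of the 31 had a log2 fold change above 0, with a median of 0.33, and 13 rose. The share of all probe sets above 0 was 51.6%. The rise was uneven: 3 of the first 19, from Mir379 to Mir539, and 10 of the last 12, from Mir382 onwards, passed. The border between them was set after the values were seen and coincides with a gap of 5568 bases between the hairpins of Mir539 and Mir382 in the sequence table.

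In the first 19, Mir495 rose by 0.65 ± 0.10 on the log2 scale, from 5.33 ± 0.27 (SD, n = 12) to 5.99 ± 0.24 (limma, adjusted p = 0.000421). Mir376b rose by 0.53 ± 0.11 (adjusted p = 0.0299) and Mir666 by 0.24 ± 0.04 (adjusted p = 0.00173). The call of Mir376b was lost in 10 of the 24 fits that each left out 1 mouse. Mir376a, an adjacent precursor of the same family, had 0.56 ± 0.15 and did not pass (adjusted p = 0.125), and Mir376c had 0.38 ± 0.16 (adjusted p = 0.435). Mir543, at 0.49 ± 0.11, and Mir300, at 0.39 ± 0.09, lay just outside the threshold, with adjusted p-values of 0.0516 and 0.0557.

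Mir379, which gives the array of precursors its usual name, had levels from 6.66 to 7.74 in MUT and from 6.28 to 7.62 in WT, with a difference of 0.33 ± 0.15 on the log2 scale (adjusted p = 0.463). The precursors nearest to 0 in the whole cluster were, after Mir673, Mir299a with 0.08, Mir679 with 0.16, Mir494 with 0.18, Mir381 with 0.18 and Mir323 with 0.20. Mir299a had levels from 4.74 to 5.12 in MUT and from 4.60 to 5.19 in WT, so no MUT mouse lay above every WT mouse.

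At the distal end the differences were larger. Mir382 rose by 0.52 ± 0.07 on the log2 scale, with every MUT mouse above every WT mouse. Mir134, whose miRNA restrains spine growth by repressing Limk1, rose by 0.46 ± 0.07, from 9.91 ± 0.22 (SD, n = 12) to 10.37 ± 0.14 (limma, adjusted p = 0.000906), with 11 of 12 MUT mice above every WT mouse. Mir668 rose by 0.43 ± 0.08 (adjusted p = 0.00912) and Mir496a by 0.30 ± 0.06 (adjusted p = 0.0112). Mir154 (0.33, adjusted p = 0.163) and Mir377 (0.32, adjusted p = 0.0711) did not pass.

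A miRNA of Mir485 is known to repress the synaptic vesicle protein gene Sv2a. Which arm does so is not given here, where miR-485-3p is the sole arm listed. Mir485 had levels from 9.28 to 9.91 with a median of 9.61 in MUT. In WT they ran from 8.67 to 9.24 with a median of 8.98. The genotypes did not overlap, and the log2 fold change was 0.65 ± 0.07 (SE; limma, adjusted p = 2.19e-06). Mir541 rose by 0.54 ± 0.07 and Mir409 by 0.61 ± 0.07, each again without overlap.

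Mir412, Mir369 and Mir410 follow Mir409 within 638 bases, counted from the start of the Mir409 hairpin to the end of that of Mir410. Mir412 had levels from 8.31 to 8.96 with a median of 8.70 in MUT and from 7.61 to 8.31 with a median of 7.96 in WT. The lowest MUT mouse lay just under the highest WT mouse, and the other 11 lay above it. Its log2 fold change was 0.75 ± 0.07 (SE), a fold of 1.68 (limma, adjusted p = 1.45e-07). Mir369 had levels from 8.37 to 8.84 with a median of 8.59 in MUT and from 7.74 to 8.25 with a median of 7.94 in WT. There was no overlap, and the log2 fold change was 0.65 ± 0.06 (adjusted p = 6.27e-08).

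The probe set named to both Mirg, the long noncoding RNA at the end of the cluster, and Mir410 had the smallest p-value of the cluster. Its levels ran from 9.39 to 9.80 with a median of 9.54 in MUT and from 8.57 to 8.99 with a median of 8.79 in WT. Every MUT mouse lay above every WT mouse. The log2 fold change was 0.79 ± 0.05 (SE; limma, adjusted p = 1.6e-10). Whether its probes read Mirg, Mir410 or both is not given, so a level of Mirg alone was not measured.

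**Figure D2:**
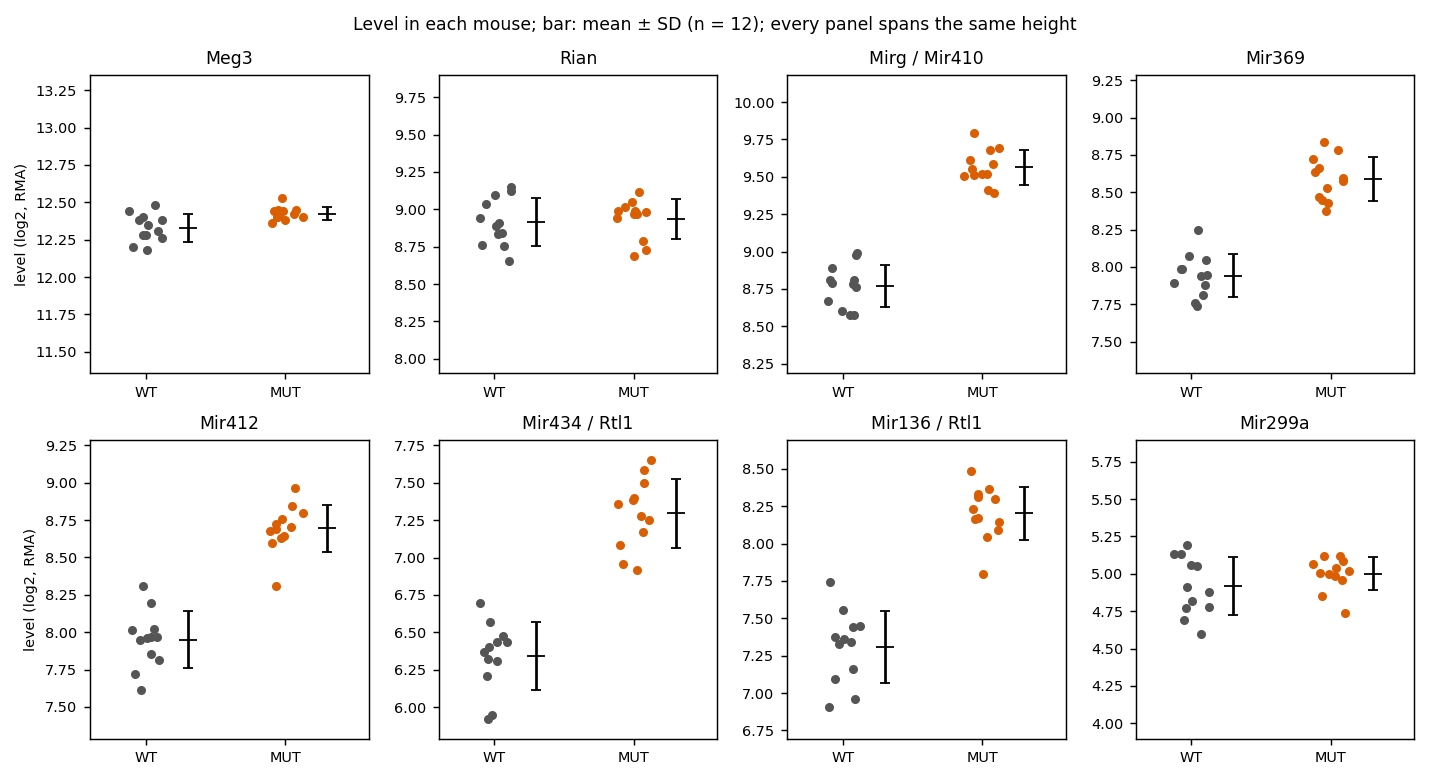
Level in each mouse (log2, RMA) for 8 probe sets of the cluster, WT in grey and MUT in orange, with the mean and SD beside the points; every panel spans the same height. Meg3, Rian and Mir299a overlap between the genotypes, whereas Mirg and Mir410, Mir369, Mir434 and Mir136 do not.

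Across the cluster, 8 of the 68 probe sets had every MUT mouse above every WT mouse (0.0703% of all probe sets). These were the probe sets of Mir434, Mir136, Mir382, Mir485, Mir541, Mir409, Mir369 and Mir410. The probe sets named to a precursor inside Mirg in RefSeq numbered 8, of which 6 rose with log2 fold changes over the 8 from 0.30 to 0.79. Those inside the Rtl1 span numbered 9, of which 5 rose, and the 4 that did not are Mir673, Mir337, Mir540 and Mir665.

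Whether precursors changed by a different amount than the long noncoding RNA was tested by subtracting the Meg3 level of each array from every probe set before the fit. Relative to Meg3, 23 of the other probe sets of the cluster were higher in MUT (limma, adjusted over all probe sets), against 0.231% of all. All 23 are named to precursors, 17 to 1 precursor and 6 to several genes, and the 19 probe sets that rose are among them. Mir412 was higher relative to Meg3 by 0.65 ± 0.06 on the log2 scale (adjusted p = 4.07e-08) and the probe set of Mirg and Mir410 by 0.70 (adjusted p = 1.46e-10). Because Meg3 itself had a value of 0.09, this subtraction moved all probe sets down, and 5.45% of all probe sets were lower on this scale, 1 probe set of Ppp2r5c among them. With Rian in place of Meg3, 15 probe sets were higher, against 0.169% of all. None of the unnamed or small nucleolar probe sets passed in either direction in these fits. A ratio within an array shows unequal change of signal only. Meg3 was the brightest probe set of the cluster, and whether its signal follows RNA amount as that of the precursors does was not tested.

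The mice differed among themselves along the whole array of precursors. Averaged over the 36 probe sets named to 1 precursor, the level was 8.08 ± 0.13 (SD, n = 12) in MUT and 7.72 ± 0.20 in WT, and the lowest MUT mouse, replicate 5, at 7.84, lay below the highest WT mouse, replicate 6, at 7.92. The WT mouse of replicate 3 was the lowest of its genotype in 22 of the 36 precursors and that of replicate 12 in 11. Among mutants, replicate 5 was the lowest in 16 and replicate 12 in 10, and replicate 6 the highest in 18. The SD between mice was larger in WT than in MUT for 29 of the 36 precursors, with median SDs of 0.24 and 0.16. It was larger in WT for 17158 of all 35556 probe sets. Without the WT mice of replicates 3 and 12 and the MUT mouse of replicate 5, a choice made after the values were seen, 22 probe sets of the cluster rose.

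**Figure D3:**
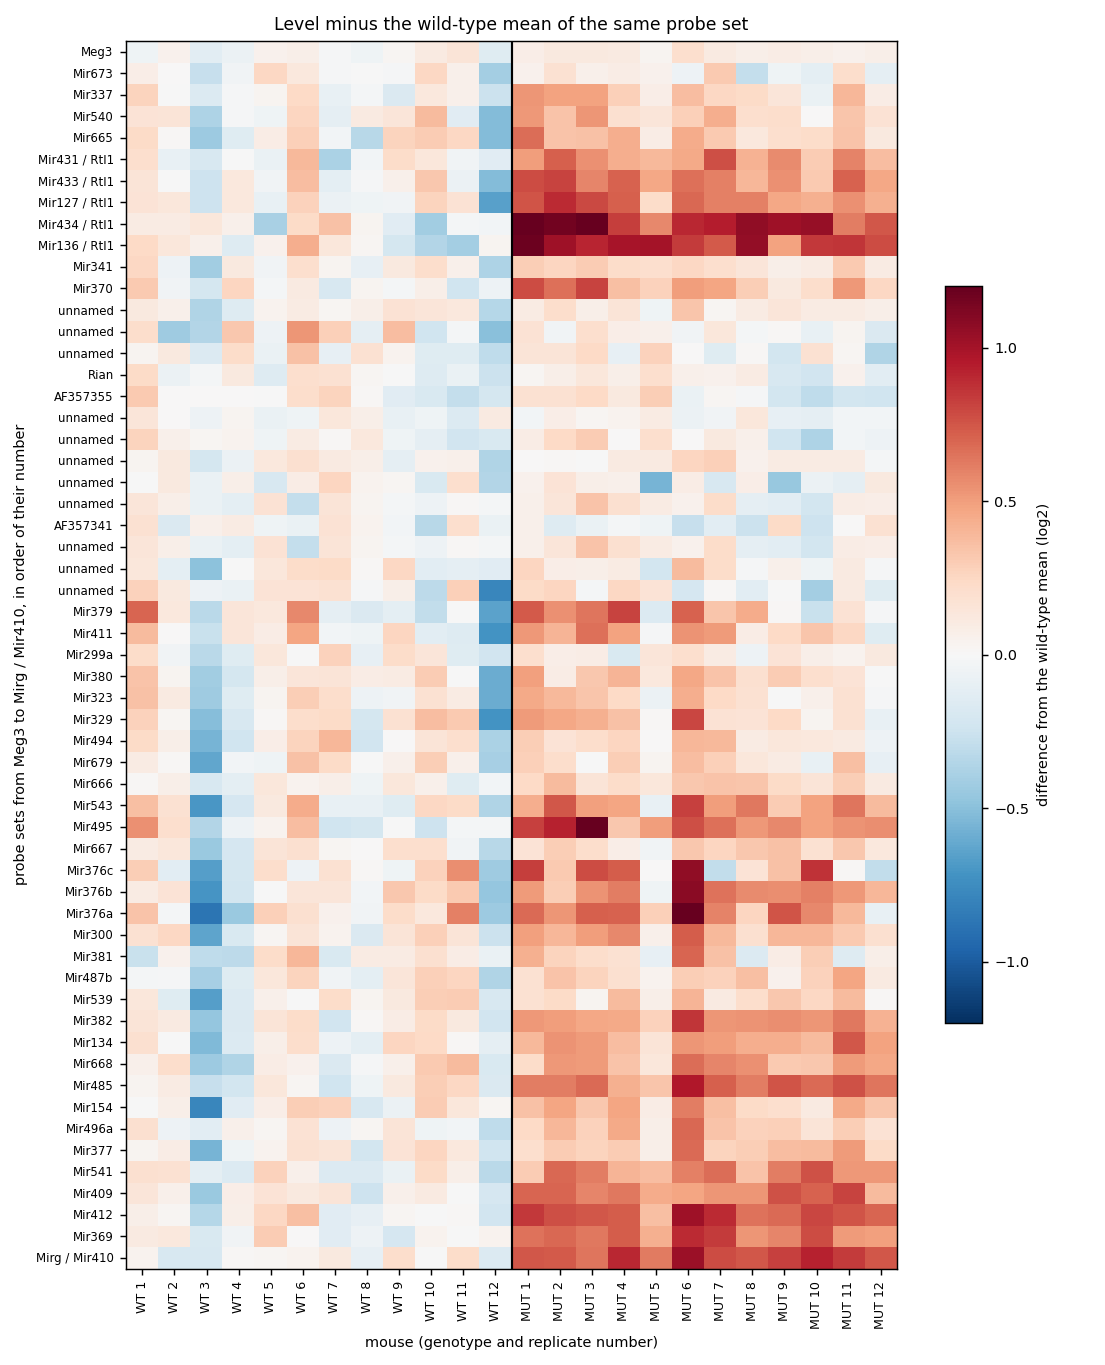
Level of each mouse minus the WT mean of the same probe set (log2, colour scale) for the 57 probe sets from Meg3 to Mirg and Mir410, in order of their number; WT mice stand left of the line and MUT mice right of it. The Rtl1 stretch and the last probe sets are red in all MUT mice, the stretch around Rian shows no shared colour in MUT, with single values from -0.78 to 0.53 over both genotypes, and the WT mice of replicates 3 and 12 are blue over many precursors.

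The probe sets fixed as markers of the cluster were compared mouse by mouse after removing the genotype means. Over 24 mice, Mir412 and Mir369 varied together, with Pearson's r = 0.66 (permutation test, two-sided, 100000 resamples, p = 0.0004, adjusted p = 0.0024 over 6 pairs) and Spearman's rho = 0.66 (permutation test, adjusted p = 0.00396). The correlation was 0.90 in arrays 1 to 12 and 0.18 in arrays 13 to 24, so it did not hold to the same degree in both sets of mice, and it was 0.70 without the 2 mice farthest from the median of Mir412. Meg3 and Mir412 had r = 0.63 (permutation test, adjusted p = 0.00408) and rho = 0.51 (permutation test, adjusted p = 0.0347). Their r was 0.73 and 0.57 in the sets of arrays, and 0.66 without the 2 mice farthest from the median of Meg3. Meg3 and Mir369 had r = 0.42 and rho = 0.43 (permutation test, adjusted p = 0.0762 and 0.0737). For this pair r was 0.80 and 0.11 in the sets of arrays, and 0.59 without the same 2 mice farthest from the median of Meg3. The 3 pairs with Rian did not pass: r was -0.02 with Meg3, 0.09 with Mir412 and -0.22 with Mir369 (permutation test, adjusted p = 0.94, 0.834 and 0.447), and rho was -0.10, 0.10 and -0.16 (permutation test, adjusted p = 0.654 for each). In arrays 1 to 12 and 13 to 24, r with Rian was -0.36 and 0.19 for Meg3, -0.29 and 0.37 for Mir412 and -0.43 and -0.48 for Mir369.

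The labels carry a running array number, and arrays 1 to 12 and 13 to 24 hold different samples, with 7 and 5 mutants. In arrays 1 to 12 alone, 10 probe sets of the cluster rose (0.118% of all probe sets), and in arrays 13 to 24 alone 9 rose (0.0731%). Of the 57 probe sets from Meg3 to Mirg, 54 had a larger difference in arrays 1 to 12 than in arrays 13 to 24, against 46.7% of all probe sets; the difference between the sets was not tested. The median over the 36 precursors was 0.42 in the first set and 0.21 in the second. Mir412 had log2 fold changes of 0.75 and 0.73, the probe set of Mirg and Mir410 0.84 and 0.77 and that of Mir434 and Rtl1 0.998 and 0.896, whereas Mir329 had 0.47 and 0.05 and Mir381 0.41 and -0.06. Among the 11 unnamed probe sets around Rian, 10 lay above 0 in the first set and 2 in the second.

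**Figure D4:**
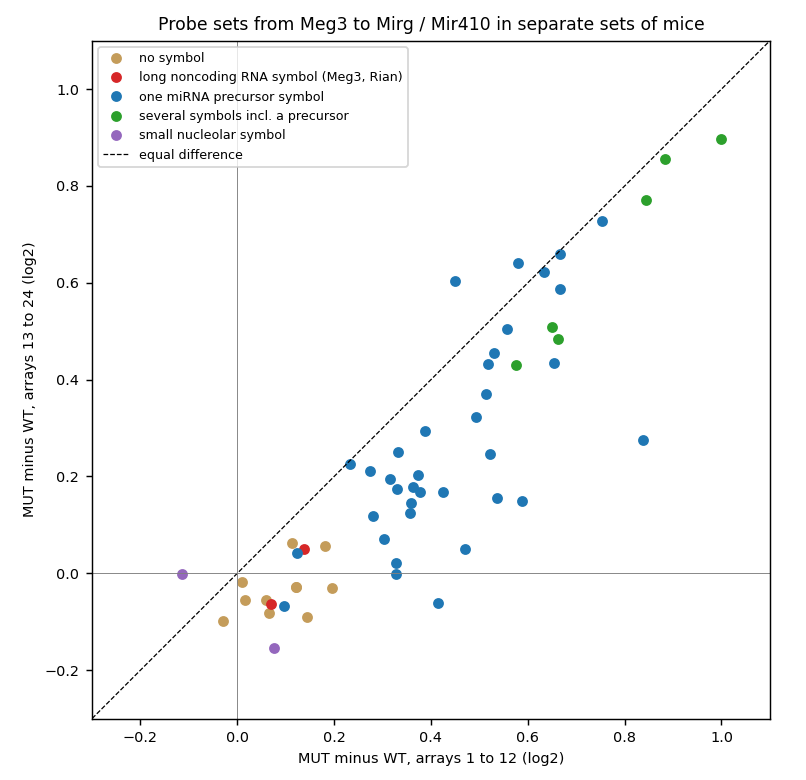
Difference between MUT and WT (log2) in arrays 1 to 12 (horizontal) and 13 to 24 (vertical) for the 57 probe sets from Meg3 to Mirg and Mir410; the dashed line marks equal differences. Most precursors lie below the line, and the probe sets of Mir434, Mir136, Mir410 and Mir412 are high in both sets of mice.

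The hairpins were compared as a description. Over 41 precursors with a hairpin sequence, the median GC content was 46.8% in the 18 whose probe sets rose and 43.4% in the other 23. The median length was 79 bases in both. The 18 include 6 whose probe set is also named to Rtl1 or Mirg, so that a rise of the precursor itself is not established for them. The median folding energy (RNAfold) was -34.9 kcal/mol in those that rose and -34.7 kcal/mol in the others. Across precursors, which share arrays and transcripts, Pearson's r of the log2 fold change was -0.12 with the GC content and 0.22 with the folding energy. Both are given as a description.

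Of the 3 protein-coding genes of the domain, 2 had probe sets of their own, Dlk1 and Dio3. These and the neighbours of the domain had differences near 0. Rtl1 could not be judged, because no probe set is named to it alone. Dlk1 and Dio3 lay under the median level of all probe sets, 6.76, and Dio3 was dim, with means of 5.08 in MUT and 5 in WT. RMA compresses differences of dim probe sets. Dlk1, a Notch-like growth regulator, had levels from 6.03 to 6.59 in MUT and from 6.18 to 6.55 in WT, with a log2 fold change of -0.002 ± 0.05. Dio3, the enzyme that inactivates thyroid hormone, had 0.08 ± 0.07 (limma, adjusted p = 0.739). Of 14 genes listed from both sides of the domain, none passed, with values from -0.06 to 0.04; Hsp90aa1, a chaperone, had -0.06 ± 0.02 (adjusted p = 0.325), Evl, an actin regulator, 0.04 and Cinp 0.02. The 3 probe sets of Ppp2r5c, a phosphatase subunit, had -0.002, -0.06 and -0.03.

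Genes with roles in the domain's regulation were examined next. Of 15 measured genes that set or read imprints, none passed and the median was 0.00075: Dnmt3b, a DNA methyltransferase, had 0.13 ± 0.05 (limma, adjusted p = 0.381), Ctcf, an insulator protein, -0.06, Tet3, which oxidises methylated DNA, -0.09, and Uhrf1, a methylation cofactor, 0.18. The 3 measured Mef2 factors, which activate the Mir379 to Mir410 array in neurons, had -0.001 (Mef2a), 0.02 (Mef2c) and 0.02 (Mef2d). Of 5 polycomb genes, whose complex binds Meg3, none passed, with a median of -0.08; Ezh2 had -0.08 ± 0.03 (adjusted p = 0.403), Suz12 -0.08, Rbbp7 -0.08 and Eed -0.07.

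In the processing of miRNAs and small nucleolar RNAs, Dgcr8 was the sole gene of 21 measured to pass, and the median was -0.01. Tnrc6c, a silencing cofactor, had 0.07, Dhx9, a helicase, -0.06 and Xpo5, the exporter of hairpins, -0.06. Drosha had -0.01 ± 0.03 and Dicer1 -0.02 ± 0.03. Of 6 genes of the small nucleolar particle none passed, with a median of -0.04; Rrp9 had -0.11 ± 0.04 (limma, adjusted p = 0.41), Nop58 -0.06, Nop56 -0.04 and Snu13 -0.02. Of 3 measured transcripts of other chromosomes, listed for comparison, Ube3a had -0.05, Snhg11 0.03 and Airn 0.03, and none passed. Whether Snhg11 is imprinted was not checked. The symbols Snord115 and Snord116 named 0 probe sets.

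Of 6 genes described as neuronal targets of the cluster's miRNAs, none passed. Their values ran from -0.05 to -0.008: Creb1, an activity-dependent transcription factor, had -0.05 ± 0.03 (limma, adjusted p = 0.579), Sv2a -0.03, Limk1, an actin-regulating kinase, -0.04 and Pum2, a translational repressor, -0.02. The median over the 6 was -0.03 against 0.003 over all probe sets. Medians of the 9 gene lists other than cell types, this list included, ran from -0.08 to 0.04. Whether the miRNAs act on these genes here was not tested.

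The cluster's precursors were set beside those elsewhere in the genome. Of 263 probe sets named to 1 precursor outside the cluster, 32 rose and none fell, a share of 12.2% against 36.1% in the cluster, with medians of 0.09 and 0.32. The levels of these sets differed, with medians of 5.50 outside and 8.05 in the cluster. The difference between these shares was not tested, and precursors transcribed together are not independent.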

How the data were processed

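Levels in 24 mice, 12 per genotype, were taken from the deposited table of log2 values, which the authors made with RMA, per the submitters' processing notes. The sources used here give neither its version nor a genome build. The log2 scale was read from the range of the values, 1.82 to 14.49. RMA compresses differences of dim probe sets, the table holds no detection call, and the number of arrays limits the precision. Names came from the platform's annotation table, where 21218 probe sets had 1 symbol, 1881 several and 12457 none. MUT and WT were compared with limma 3.58.1 (lmFit, eBayes; R 4.3.3) over all 35556 probe sets, with Benjamini-Hochberg adjustment and a threshold of 0.05. The fit was tested on simulated data. The members, gene lists and alternatives were chosen with earlier results of these data known. Listed genes were represented by the brightest probe set with 1 symbol. Named with values were the long noncoding and Rtl1 probe sets, the markers Mir412 and Mir369, the 12 smallest p-values, the 6 precursors nearest 0, up to 4 small nucleolar, unnamed and multi-gene probe sets, and up to 4 genes per list; other members that rose or lay near the threshold were named to complete the counts. Alternatives covered normalization, centring, variance model, array weights, a filter on dim probe sets (mean under 5), a replicate block, array sets, mice left out and genes only.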

Additional observations from a re-analysis of the deposited data

How the results depend on the processing

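The 19 probe sets of the cluster that rose numbered 18 to 22 when 1 mouse was left out, with no single mouse changing the count by over 1.5 times, and the 13 precursors among them 12 to 16; the 6 probe sets with several symbols stayed at 6, and the counts of lower probe sets and of long noncoding and small nucleolar probe sets that rose stayed at 0. In arrays 1 to 12 alone, 10 probe sets of the cluster and 4 precursors rose and 7 were higher relative to Meg3. In arrays 13 to 24 alone the counts were 9, 6 and 8, and 3 with several symbols; both settings use fewer mice. Relative to Rian in place of Meg3, 15 were higher, in place of 23; the cause was not tested. Sign changes occurred in 6 probe sets, none of which passed under any alternative. In arrays 13 to 24 Rian had -0.063, Mir673 -0.068, Mir679 -0.0011, Mir381 -0.062 and Dlk1 0.021; in arrays 1 to 12 AF357355 had 0.075 and Dlk1 0.0072. Without the 3 mice left out after the values were seen, Rian had -0.025 and Mir673 -0.042. AF357355 had 0.012 after quantile normalization and 0.023 without MUT replicates 5, 9 and 10, and Dlk1 had 0.0013 with array weights and 0.014 with the array sets as a term. With 1 mouse left out, Rian ran from -0.0042, without WT replicate 12, to 0.042, Mir673 from -0.0082 to 0.057, AF357355 from -0.029 to 0.026 and Dlk1 from -0.026 to 0.025. The replicate numbers share no stated litter. Correlations of deviations between mice of the same number lay between -0.05 and 0.20, and 3 of 24 mice correlated best with their own number. With the replicate block 18 probe sets rose and 17 were higher relative to Meg3; Mir376b and Mir668 were lost and Mir377 was gained. Without MUT replicates 5, 9 and 10, 21 rose. The log2 fold changes of 48 probe sets (the precursor, long noncoding and named small nucleolar probe sets of the cluster, Dlk1 and Dio3) were recomputed under each alternative; those of unnamed probe sets and listed genes were not. Of 1721 such values, 1628 kept direction and side of the threshold and 31 kept direction but lost the call: 19 in the sets of 12 arrays, 10 of Mir376b with 1 mouse left out, and those of Mir376b and Mir668 with the replicate block. In 30, of Mir300, Mir543, Mir377 and Mir337, a call was gained.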
